A study of Mus musculus with 25 samples.

Results

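Chromatin modifiers and remodellers are the enzymes that add or remove methyl and acetyl groups on histone tails and DNA, and the ATP-driven motors, with their partner subunits, that slide or evict nucleosomes. Here they are the genes whose symbol begins with Kdm, Kmt, Setd, Hdac, Smarc, Arid or Dnmt, or with Chd and a digit, together with Sirt1 to Sirt7 and Tet1 to Tet3. This naming rule picked 95 of the 24411 genes that were measured. By name they fall into 7 classes, with 18 lysine demethylases (Kdm), 16 lysine methyltransferases (Kmt and Setd), 11 histone deacetylases (Hdac), 7 sirtuins, 11 CHD remodellers, 24 SMARC and ARID genes and 8 genes of DNA methylation (Dnmt and Tet). The rule reads symbols and not functions. Setd3, for example, methylates actin, Kmt2e has a SET domain but is known as a reader of methylated H3K4, Sirt3, Sirt4 and Sirt5 act in mitochondria, Hdac6 acts largely on tubulin in the cytoplasm, and Smarca5-ps is a pseudogene that shares sequence with Smarca5. Chd3os, which the annotation lists as the protein-coding gene Rnf227, counts as a CHD remodeller by its symbol alone and lies 631 bases from Chd3 on the other strand, and Dnmt3aos, an antisense transcript, overlaps Dnmt3a by 2952 bases. The strand setting of the counting was not stated, so that reads of Dnmt3a and Dnmt3aos cannot be told apart.

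Neurons do not divide, and they keep and change their gene programs through these proteins. Histone deacetylases and SWI/SNF (BAF) complexes, whose ATPases are Smarca2 and Smarca4, are known for their part in memory and in neuronal identity, the NuRD complex joins a CHD ATPase (Chd3, Chd4 or Chd5) to the deacetylases Hdac1 and Hdac2, and Dnmt3a and the Tet enzymes set the methylation and hydroxymethylation of DNA for which neurons are known. Sirtuins use NAD and are studied in aging. Several members, among them Kmt2a, Kmt2d, Arid1b, Chd8 and Kdm5c, are causes of intellectual disability or autism in humans.

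The study asked how the transcriptome of hippocampal neurons changes with age and with the level of ferritin light chain 1 (Ftl1), a subunit of the iron store ferritin. RNA of nuclei carrying the neuronal antigen NeuN, sorted from the hippocampus of male mice on a C57BL/6 background, was sequenced in 25 libraries that form 3 experiments. Wild-type mice made up the aging experiment, 3 of them young (3 months) and 2 of them aged (18 months). The overexpression experiment held young mice that received lentivirus in CA1 and the dentate gyrus, with 5 libraries of mice given GFP (OE control) and 7 of mice given Ftl1 (labelled Ftl1 OE), both driven by the neuronal synapsin-1 promoter. In the knockdown experiment, aged mice received virus with a short hairpin RNA in the same regions, against luciferase in 4 libraries (sh-Luc, KD control) and against Ftl1 in 4 libraries (labelled Ftl1 KD); the paper names both lentiviral and adeno-associated vectors. The nuclei were sorted for NeuN and not for the virus, so that nuclei without virus may be in each library. All values are normalized counts, which are reads per gene divided by the size factor of the library, and each experiment was normalized by itself.

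Libraries held from 7969282 to 9537872 reads in the aging experiment and from 9943996 to 17034325 in the overexpression experiment, but from 48902 to 358560 in the knockdown experiment. Of the knockdown reads, 31.9%, 55.3%, 52.9% and 49.4% in the controls 1, 2, 3 and 5 came from Rn45s, the ribosomal RNA precursor, against 34.5%, 30.4%, 33.6% and 30.3% in Ftl1 KD 1, 3, 4 and 5. The share was higher in 3 of the 4 controls than in every labelled library, and its part in the members' values was not tested. The 95 members together received 669, 1244, 224 and 1482 reads in KD controls 1, 2, 3 and 5, against 418, 416, 140 and 253 in Ftl1 KD 1, 3, 4 and 5. A gene was tested where its mean reached a normalized count of 10, which was so for 91 members in aging, 90 in overexpression and 11 in knockdown. The 11 that passed in the knockdown experiment are the most abundant members and do not stand for the other 84.

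The level of Ftl1 was read first, since it checks the labels. Its normalized counts were 1685, 1925 and 2141 in the young and 4247 and 4272 in the aged libraries. The aged libraries were both higher than the young ones, with a log2 fold change of 1.16 (SE 0.26), which had an adjusted p of 0.397 in limma and of 0.000174 in DESeq2. In the overexpression experiment Ftl1 measured 7315, 4580.4, 28309.5, 7415 and 9953 in OE controls 9901, 9904, 9905, 9925 and 9926, and under the label Ftl1 OE it ran from 4737 to 7663 with a median of 5171. The groups overlapped, and the labelled libraries lay on average below the controls, against their label (log2 fold change −0.67, adjusted p = 0.681 by limma; −0.27 without OE control 9905). In the knockdown experiment Ftl1 measured 49.1, 45.6, 56.2 and 24.2 in the controls, against 117, 106, 109 and 139.6 under the label Ftl1 KD. All 4 labelled libraries were above all 4 controls, again against the label (log2 fold change 1.47, SE 0.25, adjusted p = 0.000223 by limma). Since the counts bear out neither label, the groups are called libraries labelled Ftl1 OE and Ftl1 KD throughout. No direction given here is a direction of Ftl1 activity. Whether libraries or groups were exchanged cannot be told from these counts, and an exchange of groups would turn each direction given for that experiment.

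OE control 9905 had the lowest median correlation with the other overexpression libraries across genes, at 0.773, and the highest Ftl1 count. In it 8 members had 0 reads, among them Kdm4d, Kdm8 and Setdb2. OE control 9926 (0.786, with 7 members at 0) and Ftl1 OE 9918 (0.791, with 4) were close to it, and the highest correlation was 0.902. Class medians and fold changes of the overexpression experiment are given with and without it. Neuron markers were present in every library, with a summed normalized count of 8 genes from 27826 to 37031 in aging, from 45482 to 75055 in overexpression and from 149.8 to 209.5 in knockdown. Kdm5d, which lies on the Y chromosome, was present in all aging and overexpression libraries, which are labelled male. Xist, which is known from female cells, had 3, 7 and 4 reads in the young and 77 and 17 in the aged libraries, and the Y-linked Uty had 243, 264 and 365 against 73 and 166. In the overexpression libraries Xist had from 0 to 16 reads, with 16 in OE control 9904.

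In young neuronal nuclei, sirtuins and histone deacetylases stood at the top of the members once counts were divided by transcript length. The median level over the 91 members tested was 83.1 normalized counts per kb of transcript, beside 76.0 over all genes tested, whose quartiles were 25.7 and 192. By class the median was 260 per kb in sirtuins, 147 in histone deacetylases, 98.2 in lysine methyltransferases, 80.1 in CHD remodellers, 74.1 in SMARC and ARID genes, 73.2 in lysine demethylases and 63.1 in the DNA methylation class. Sirt7, a nuclear and nucleolar deacylase, was the most abundant member with 1121 ± 30.3 per kb (SD, n = 3), followed by Hdac3, a class I deacetylase that works in corepressor complexes, with 791 ± 95.7. Their young values did not overlap, from 1090.4 to 1151 and from 696 to 887 per kb. Kmt2e (503 ± 44.9), Hdac11 (448 ± 55.8), the mitochondrial Sirt3 (405 ± 30.6) and Smarca4 (403 ± 44.5) came next, and the last 3 of these lay within each other's spread. At the lower end were Dnmt3b (7.71 ± 7.47 per kb), Arid3a (9.11 ± 6.56) and Arid5a (9.46 ± 5.03), followed by the untested Dnmt3aos (2.56 ± 4.44), and Dnmt3l, Arid3c and Smarca5-ps were each below 1 per kb.

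**Figure D1:**
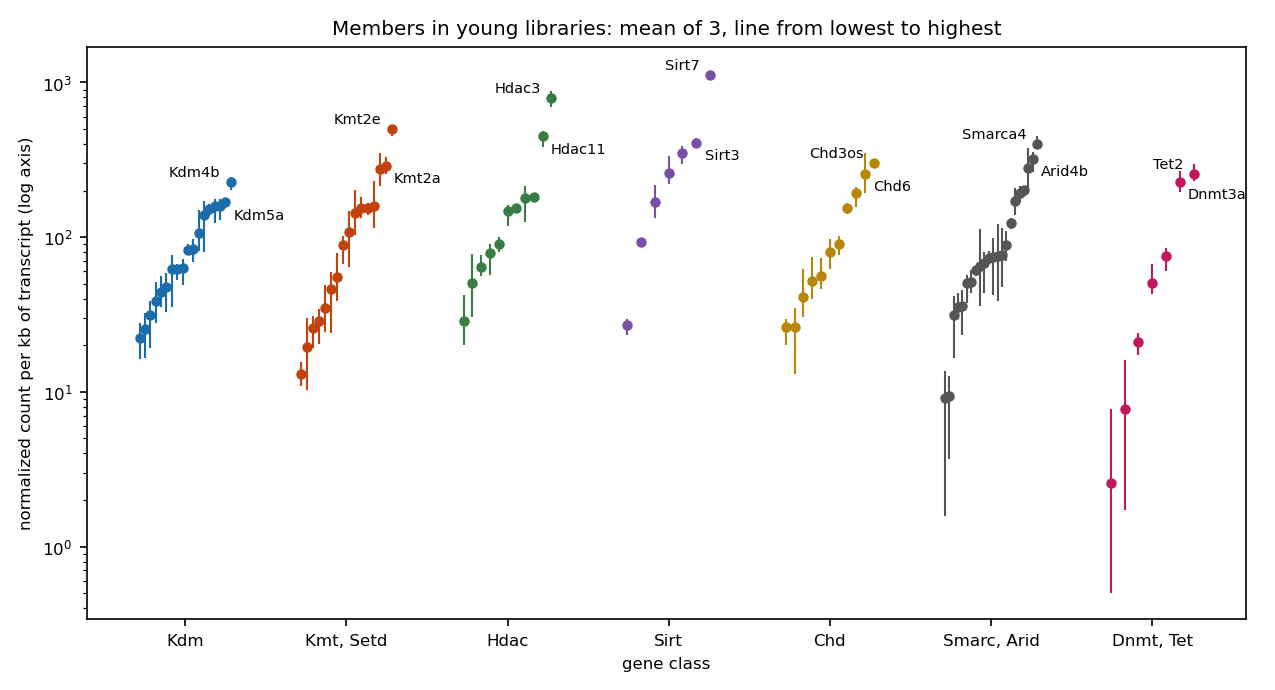
Level of each member in the 3 young libraries, as normalized count per kb of transcript on a log axis, by gene class. Points are means and lines run from the lowest to the highest library (a lowest value of 0 is drawn at 0.5), with the 2 most abundant of each class named (Sirt7, at 1121, and Hdac3, at 791, stand highest) and Dnmt3l, Arid3c and Smarca5-ps, each below 1, left out.

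Some close relatives within a class were expressed at unequal levels, and others overlapped. Of the BAF ATPases, Smarca4 (403 ± 44.5 per kb) exceeded Smarca2 (192 ± 23.4) in young nuclei, and of the core scaffold pair, Smarcc2 (202 ± 8.40) exceeded Smarcc1 (51.0 ± 9.12). The order of both pairs was the same in the OE control libraries, at 480 ± 103 against 290 ± 142 and at 507 ± 156 against 57.5 ± 18.9 (SD, n = 5), although the ranges of Smarca4 (374 to 606) and Smarca2 (94.4 to 471) overlapped there. Arid1a, which together with Arid1b gives BAF its DNA-binding subunit, measured 124 ± 10.3 and Arid1b 35.4 ± 7.13 per kb. In the NuRD family, the levels per kb of Chd4 (mean 193, 157 to 212) and Chd3 (mean 155, 142 to 165) overlapped, and Chd5 (80.1 ± 17.4) lay below both. The maintenance methyltransferase Dnmt1 (75.4 ± 13.3) lay below the de novo enzyme Dnmt3a (227 ± 36.6) in young nuclei, whereas their ranges overlapped in the OE controls (39.2 to 232 and 37.0 to 109), where the highest Dnmt1 and the lowest Dnmt3a were both in OE control 9905. Tet2 (255 ± 37.3) led Tet3 (50.9 ± 14.2) and Tet1 (21.0 ± 3.40) in young nuclei, whereas Tet3 (60.7 ± 29.9) and Tet2 (46.7 ± 27.3) were within each other's spread in the OE controls.

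The deacetylases Hdac1 and Hdac2 are shared by NuRD, Sin3 and CoREST complexes. Hdac1 measured 181 ± 7.66 and Hdac2 63.6 ± 11.3 per kb in young nuclei (n = 3), a gap larger than their ranges (177 to 190 and 55.8 to 76.7). In the OE controls the values were 332 ± 81.0 and 293 ± 134 (n = 5), with ranges of 209 to 406 and 115 to 427 that overlapped. Hdac5 (147 ± 24.0) lay above Hdac4 (90.0 ± 10.4) in young nuclei, both class IIa deacetylases that shuttle between nucleus and cytoplasm with activity. The H3K27 demethylases Kdm6a (28.1 to 51.6) and Kdm6b (35.5 to 55.9) did not differ beyond their spread, nor did the X-linked Kdm5c (83.1 ± 6.92) and its Y-linked partner Kdm5d (106 ± 37.9), nor the H3K4 methyltransferases Kmt2a (290 ± 37.9) and Kmt2d (275 ± 68.8). Sirt1, the sirtuin best known from work on lifespan, was the least abundant of its class with 27.1 ± 3.19 per kb, whereas Sirt2, which is abundant in myelinating glia, measured 260 ± 66.1. Oligodendrocyte markers were present in the sorted nuclei too, with a sum of 8 genes of 2946, 6688 and 5323 in the young libraries and Mbp as the most abundant; their part in the level of Sirt2 was not tested. Levels of different experiments were not tested against each other, since age, virus and normalization differ between them.

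With age, methyltransferases, CHD remodellers and SMARC and ARID genes were more often higher than lower, and lysine demethylases more often lower, but 0 of 91 members passed the test. Of 16 methyltransferases 13 were higher in aged nuclei (median log2 fold change 0.22), of 22 SMARC and ARID genes 16 (0.22) and of 11 CHD remodellers 8 (0.21), whereas 14 of 18 demethylases were lower (−0.34). Histone deacetylases (0.02), sirtuins (−0.25) and the DNA methylation class (−0.09, and 0.01 after a correction for transcript length) completed the classes, beside a median of 0.05 over all members and −0.03 over the 13712 genes tested. Of all genes tested, 48.3% had a positive log2 fold change. The sign of some of these class medians rested on a single library. The DNA methylation class was at 0.13 without young 1. Histone deacetylases were at 0.51 without aged library 3 and at −0.15 without aged library 2. Against the mean of the young libraries, the median demethylase stood at 0.13 in aged library 2 and at −0.61 in aged library 3, and the median methyltransferase at 0.45 and −0.12. CHD remodellers (0.25 and 0.04), SMARC and ARID genes (0.43 and 0.04) and sirtuins (−0.18 and −0.32) had the same sign in both. The median over all members was 0.26 without aged library 3 and −0.13 without aged library 2, so that its sign depended on a single mouse. The spread of the class medians between libraries of 1 group was 0.34 for demethylases and 0.30 for methyltransferases (pooled SD), as large as the differences themselves. For CHD remodellers (0.17) and SMARC and ARID genes (0.19) this spread was slightly below the differences of 0.21 and 0.22.

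**Figure D2:**
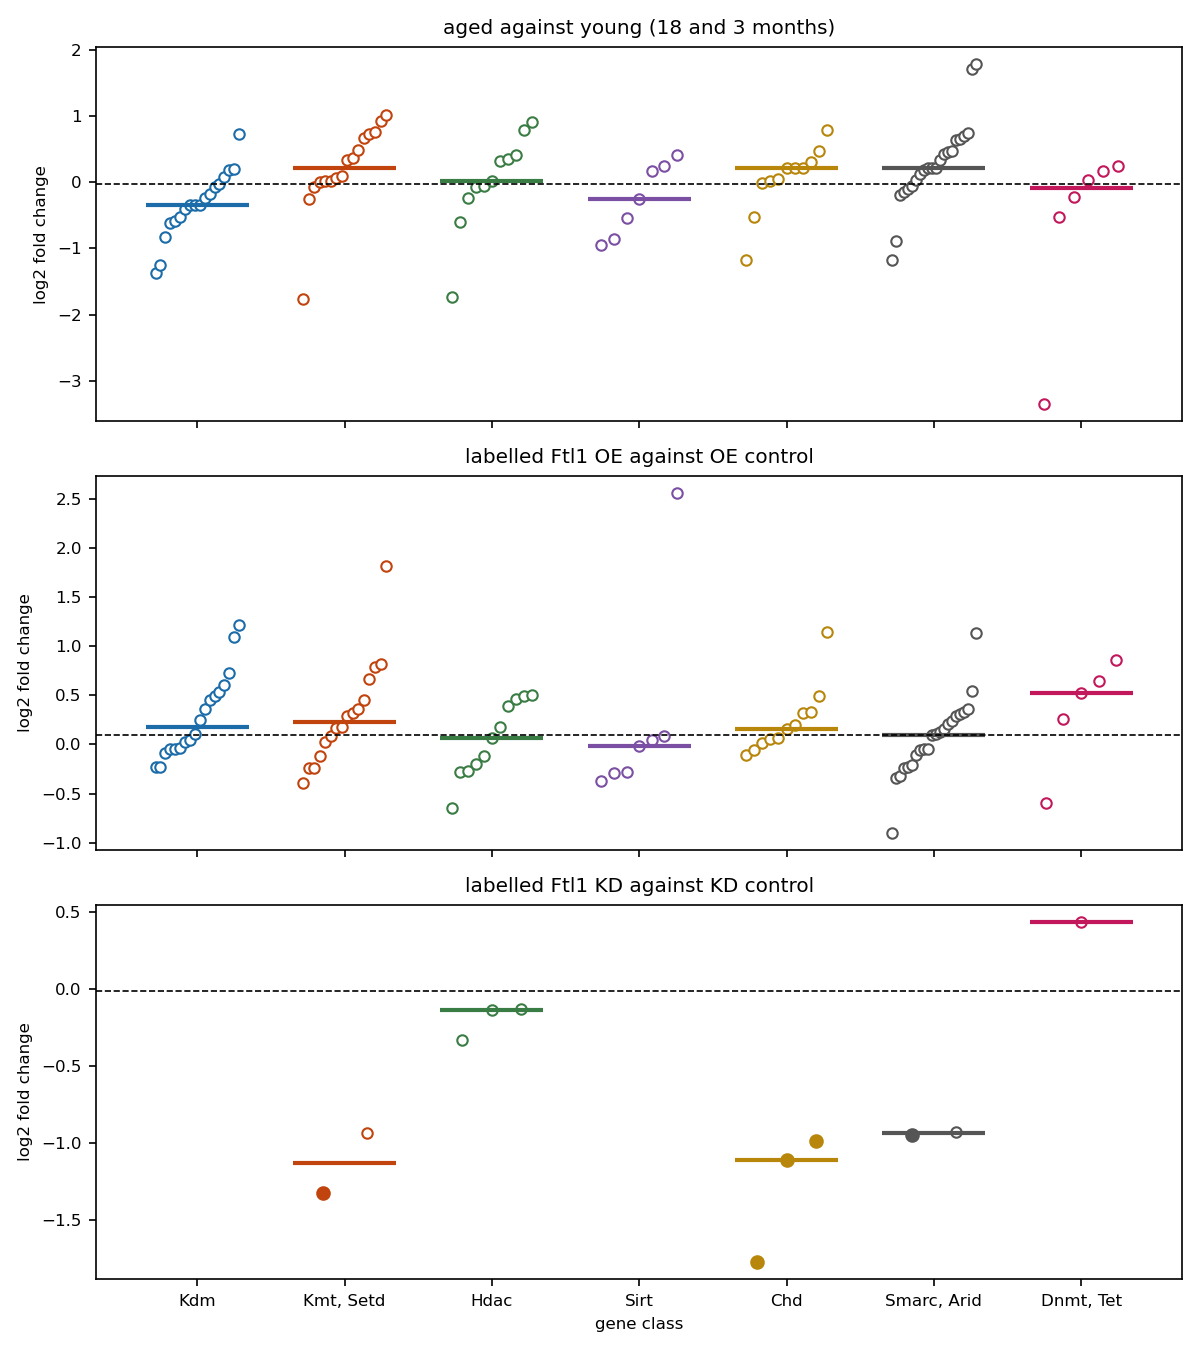
Log2 fold change of each member tested, by gene class, in the aging (top), overexpression (middle) and knockdown (bottom) experiments. Filled points passed the limma test (adjusted p at most 0.05), which were the 5 knockdown members Chd6, Kmt2a, Chd3, Chd4 and Smarcc2; coloured bars are class medians and the dashed line is the median of all genes tested.

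The test for aging was limma on log2 values which asked for an adjusted p of at most 0.05 and a log2 fold change of 0.5 or more in either direction, and it called 0 of the 13712 genes (0%). At an unadjusted p of at most 0.05 stood 2 members that were higher and 2 that were lower, beside 1089 of all genes (7.94%); edgeR called 0 genes, and DESeq2 called 33 higher and 105 lower, with 0 members among them. The 2 groups did not overlap for 13 members that were higher and 8 that were lower, and this held for 3390 of all genes (24.7%). With 3 against 2 mice, the smallest p of an exact two-sided permutation test is 0.1. Counts of members at an unadjusted p of at most 0.05 by limma moved when 1 library was left out, to 5 higher and 2 lower without young 1, 0 and 3 without young 2, 1 and 0 without young 3, 2 and 12 without aged 2, and 7 and 4 without aged 3.

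Among the single members, the ISWI-type remodeller Smarca1 had the smallest p. Its normalized counts were 319, 353 and 388 in the young and 213 and 112 in the aged nuclei. Both aged libraries lay below all 3 young ones, with a log2 fold change of −1.18 (SE 0.42; unadjusted p = 0.016, adjusted p = 0.534 by limma). Setd6, which methylates the NF-kappaB subunit RelA, measured 66.4, 80.6 and 134 in young against 26.7 and 24.8 in aged nuclei (log2 fold change −1.76, SE 0.74, adjusted p = 0.612 by limma). The aged values were close to each other and below the lowest young value, and the count rests on few reads, from 27 to 151. Smarcad1, a remodeller linked to repair and to heterochromatin, measured 595, 246 and 355 in young against 242 and 169 in aged nuclei. Here young 1 was far above the other young libraries, and aged 2 was only just below young 2. Dnmt3b, a de novo methyltransferase with little expression in adult neurons, measured 69.5, 7.42 and 23.1 in young against 0 and 4.59 in aged nuclei. Young 1 was the highest, and all 3 young libraries lay above both aged ones.

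On the other side stood Arid5a, Setd1a, Hdac7 and Smarcd1. Arid5a, an ARID protein known for binding RNA, measured 69.5, 20.1 and 66.6 in the young and 237 and 107 in the aged nuclei. Aged 2 was far above aged 3, and young 2 lay far below the other young libraries (log2 fold change 1.79, SE 0.75, unadjusted p = 0.0346, adjusted p = 0.612 by limma). Setd1a, the catalytic subunit of a COMPASS complex that methylates H3K4, measured 179, 201 and 125 in young against 466 and 243 in aged nuclei. Again aged 2 was the highest library, and the log2 fold change of 1.02 (SE 0.46) was 0.55 without it. Hdac7, a class IIa deacetylase, measured 375, 383 and 239.6 in young against 717 and 445 in aged nuclei, and the BAF subunit Smarcd1 measured 208, 187 and 211 in young against 463 and 246 in aged nuclei. In both, aged 3 lay nearer to the young libraries than aged 2 did. The adjusted p of these 4 genes in limma ran from 0.612 to 0.667, and over the alternative settings from 0.317 to 0.98.

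The class median of sirtuins had a pooled SD of 0.07 between libraries of 1 group, yet it was −0.35 without young 1, −0.35 without young 2, −0.05 without young 3, −0.18 without aged 3, −0.04 at a mean of at least 100 and −0.10 with the length correction. Sirt7, the most abundant member, measured 1935, 1988 and 1883 in the young and 1111 and 1600.3 in the aged nuclei, and Sirt4 measured 173, 155 and 173 in young against 105 and 69.8 in aged nuclei. Both aged libraries lay below the young ones for each gene. Sirt1 measured 125, 130.4 and 104 in young against 45.5 and 94.6 in aged nuclei, whereas Sirt3 measured 607, 704 and 642 in young against 719 and 1032 in aged nuclei, with both aged libraries above. None of these passed the test (limma unadjusted p = 0.0727 for Sirt7, 0.0875 for Sirt4, 0.184 for Sirt1 and 0.204 for Sirt3), and they were chosen after their values were seen. Hdac6 was the steadiest member in young nuclei, with 638, 639 and 639.8, against 930.0 and 682 in aged ones. Markers of other cells did not pass the test in the aging experiment either. Of astrocyte markers 7 of 8 tested were lower (median log2 fold change −0.37), of oligodendrocyte markers 7 of 8 (−0.52), of precursor markers 4 of 5 (−1.63), of microglia markers 5 of 9 (−0.23) and of endothelial markers 1 of 2 (−0.73). Their part in the members' values was not tested, and 10 nuclear-retained RNAs, led by Malat1, summed to 402994, 262530 and 309169 in the young and 455243 and 247270 in the aged libraries.

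In the overexpression experiment 0 of 90 members passed the test, and the class medians changed with single libraries. The median log2 fold change of the members was 0.12, beside 0.10 over all 14099 genes tested. By class it was 0.18 for demethylases, 0.23 for methyltransferases, 0.06 for histone deacetylases (−0.03 once the median of all genes was subtracted), −0.02 for sirtuins (0.04 with TMM scaling, which put the median of all genes at 0.15), 0.16 for CHD remodellers, 0.10 for SMARC and ARID genes and 0.52 for the 5 DNA methylation genes tested. Without OE control 9905 these values were 0.01, 0.17, 0.02, 0.00, 0.04, 0.00 and 0.09, the median of the members was 0.03 and that of all genes 0.02. A correction for transcript length, chosen after seeing the data, moved the median of all genes from 0.10 to −0.13 and that of the members to −0.17, and put every class but sirtuins and DNA methylation genes on the other side of 0. Other libraries turned signs too. The median of SMARC and ARID genes was −0.07 without OE control 9926 and −0.06 without Ftl1 OE 9918, and that of histone deacetylases was −0.03 without OE control 9925 and −0.04 without Ftl1 OE 9915. The median of sirtuins ran from −0.12 without OE control 9904 to 0.05 without Ftl1 OE 9895, and that of DNA methylation genes was 0.28 without OE control 9926. Between libraries of 1 group the class medians spread by 0.23 (histone deacetylases, and SMARC and ARID genes) to 0.65 (DNA methylation genes; pooled SD), which is more than the differences between the groups. OE control 9905 had the lowest medians of methyltransferases (−0.78 against the control mean), CHD remodellers (−0.50) and DNA methylation genes (−1.08) and the highest of sirtuins (0.65), and OE control 9904 stood at the opposite side, with 0.90, 0.40, 0.88 and −0.58. The library labelled Ftl1 OE 9918 had the highest medians among the labelled libraries for all classes but sirtuins. The sum of 10 nuclear-retained RNAs, led by Malat1, was lowest in 9905 (62281) and highest in 9918 (337024) and 9904 (258121), and its part in the class medians was not tested.

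**Figure D3:**
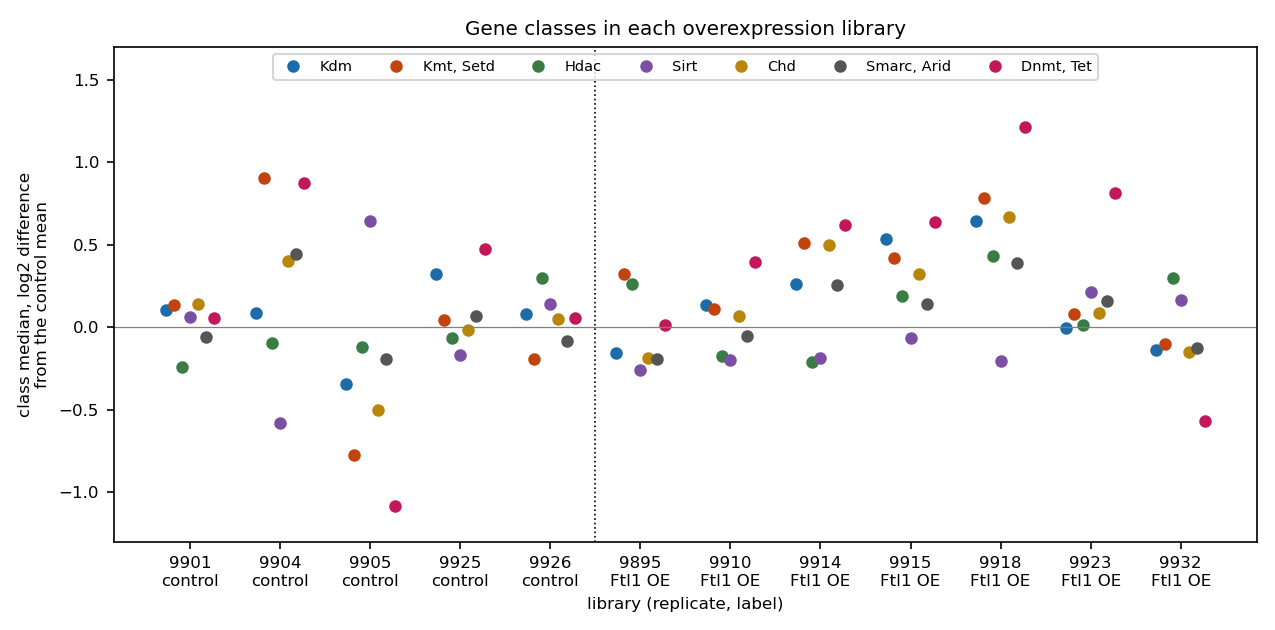
Median of each gene class in every overexpression library, as the log2 difference from the mean of the 5 control libraries. The dotted line separates controls from libraries labelled Ftl1 OE; OE controls 9904 and 9905 lie on opposite sides for methyltransferases (0.90 and −0.78) and sirtuins (−0.58 and 0.65).

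Limma called 0 of all 14099 genes (0%) in this experiment, edgeR called 0, and DESeq2 called 8 higher and 83 lower with 0 members among them. The groups overlapped for all 90 members tested, where they did not for 82 of all genes (0.582%). At an unadjusted p of at most 0.05 by limma stood 5 members that were higher and 1 that was lower, beside 1023 of all genes (7.26%). Left-out libraries moved this to 8 and 2 (without OE control 9901, and likewise without 9904), 0 and 1 (9905), 1 and 1 (9926), 3 and 1 (Ftl1 OE 9910), 2 and 1 (9915, and likewise 9918) and 1 and 1 (9923). The 6 genes, chosen after their values were seen apart from the members of fixed pairs, are given next as descriptions.

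Arid5b, a cofactor of the demethylase Phf2, measured 440.0, 435, 1255, 593 and 629 in the controls 9901, 9904, 9905, 9925 and 9926 and ran from 240.3 to 492 with a median of 353 in the libraries labelled Ftl1 OE. Control 9905 was the highest of all 12 libraries, and controls 9925 and 9926 were also above every labelled library. Controls 9901 and 9904 lay among the upper labelled ones. The log2 fold change was −0.90 (SE 0.31, unadjusted p = 0.00929, adjusted p = 0.546 by limma; −0.65 without 9905), and an exact permutation test gave p = 0.00505. Hdac1 measured 741, 794, 426, 827 and 601 in the controls and ran from 765 to 1120.3 with a median of 879 in the labelled libraries. Control 9905 was the lowest, and the log2 fold change of 0.46 (SE 0.21, adjusted p = 0.672 by limma) was 0.31 without it. Kmt2d measured 815, 1243, 398, 1186 and 679.5 in the controls and ran from 973 to 1619 with a median of 1243 in the labelled libraries, and 9905 was once more the lowest (log2 fold change 0.67, SE 0.27; 0.42 without 9905).

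Sirt1 was low in these libraries, with 16.8, 17.2, 1.35, 25.3 and 0 in the controls, and ran from 7.44 to 163 with a median of 50.9 in the labelled libraries. The labelled libraries varied over a wide range, and the lowest 2 lay among the controls (log2 fold change 2.56, SE 1.07, adjusted p = 0.638 by limma; 2.15 without 9905). Setdb1, an H3K9 methyltransferase that silences retroelements, measured 477, 880.2, 209.6, 549 and 206 in the controls and ran from 559 to 893 with a median of 708 in the labelled libraries. Controls 9905 and 9926 were the lowest 2 of the 12 libraries (log2 fold change 0.81, SE 0.34; 0.58 without 9905). The demethylase Kdm4c measured 373, 503, 40.6, 197 and 95.1 in the controls and ran from 254 to 834 with a median of 396 in the labelled libraries, with 9905 lowest and Ftl1 OE 9918 highest (log2 fold change 1.21, SE 0.53; 0.70 without 9905). For these 6 genes the adjusted p without 9905 was 0.956. Markers of other cells lay beside these values, and 0 passed. Of microglia markers 3 of 10 tested were higher (median log2 fold change −0.99), of astrocyte markers 6 of 8 (0.43) and of oligodendrocyte markers 5 of 8 (0.17). Of precursor markers 3 of 6 were higher (−0.17) and of endothelial markers 3 of 4 (0.92). The sum of 10 microglia markers, led by C1qb, ran from 3147 to 7134 in the controls and from 1959 to 3293 in the labelled libraries. The sum of 8 astrocyte markers was lowest in OE control 9905, at 12330. The part of these markers in the members' values was not tested.

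In the knockdown experiment 5 of the 11 members tested fell, namely the CHD remodellers Chd6, Chd3 and Chd4, the methyltransferase Kmt2a and the BAF subunit Smarcc2, and 0 rose. All 3 CHD remodellers tested at this filter were among them, where 1 of 6 was called with a mean of at least 3 and 1 of 11 with no filter. With a correction for transcript length, chosen after seeing the data, 0 of the 11 were called. Limma called 354 of 1460 genes (24.2%), and 200 of them were lower (13.7%). The median log2 fold change of the 11 members was −0.94 (−0.44 with the length correction), beside −0.01 over all genes tested. It was −0.56 over the 42 members with a mean of at least 3 and −0.32 over 87 with no filter, and the median of all genes was −0.12 in both settings. The mean was taken over both groups, and in the labelled libraries alone Chd6 (8.56), Chd3 (9.79) and Kmt2d (8.002) were under 10, as Dnmt3a (8.75) was in the controls. By class the median was −1.13 for the 2 methyltransferases tested (0.04 with the length correction), −1.11 for the 3 CHD remodellers (−0.57), −0.94 for the 2 SMARC genes (−0.58), −0.14 for the 3 histone deacetylases (−0.31; 0.27 with no filter, 0.09 without Ftl1 KD 4 and 0.00494 without control 1) and 0.44 for Dnmt3a (1.18), the one DNA methylation gene tested. No demethylase or sirtuin reached the mean of 10. With a mean of at least 3 (42 members tested), and likewise with no filter (87), limma called 3 members lower, Chd6, Kmt2a and the sirtuin Sirt7, beside 238 of 4938 and 210 of 13393 genes. Sirt7 measured 24.5, 13.7, 5.62 and 10.5 in the controls, on 26, 34, 3 and 25 reads, against 1.92, 1.80, 5.47 and 0 on 2, 2, 3 and 0 reads, so that control 3 was close to Ftl1 KD 4. Fewer nuclei of a kind and less RNA per nucleus cannot be told apart in such bulk libraries. The spread behind each p is that between mice at from 2 to 168 reads per called gene and library, and read counts of this size carry large counting error.

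The promoters of 4 of the 5 genes that fell were read from a table of RefSeq promoters on GRCm38.p6, which matched 73 of the 95 members. Each sequence holds the 250 bases before the RefSeq start, which can differ by some bases from the GENCODE positions given for the genes, written 5′ to 3′ on the strand of the gene, with GC boxes (GGGCGG) and CCAAT boxes (CCAAT) in capitals, found on either strand. The promoter of Chd6 lies at chr2:161109087-161109336 (minus strand), that of Kmt2a at chr9:44881290-44881539 (minus strand), that of Smarcc2 at chr10:128458986-128459235 (plus strand) and that of Chd4 at chr6:125095731-125095980 (plus strand, with 2 entries in the table). Chd3 has no entry in the table.
Chd6: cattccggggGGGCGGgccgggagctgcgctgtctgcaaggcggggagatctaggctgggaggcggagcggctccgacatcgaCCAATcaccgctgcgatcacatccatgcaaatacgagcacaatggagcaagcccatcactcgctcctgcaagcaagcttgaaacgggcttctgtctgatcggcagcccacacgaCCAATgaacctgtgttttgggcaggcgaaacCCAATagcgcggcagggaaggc
Kmt2a: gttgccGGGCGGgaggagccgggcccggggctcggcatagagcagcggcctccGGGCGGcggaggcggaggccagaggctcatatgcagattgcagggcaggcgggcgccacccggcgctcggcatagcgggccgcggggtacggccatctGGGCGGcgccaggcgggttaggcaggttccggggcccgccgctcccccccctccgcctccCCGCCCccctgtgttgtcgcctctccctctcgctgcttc
Smarcc2: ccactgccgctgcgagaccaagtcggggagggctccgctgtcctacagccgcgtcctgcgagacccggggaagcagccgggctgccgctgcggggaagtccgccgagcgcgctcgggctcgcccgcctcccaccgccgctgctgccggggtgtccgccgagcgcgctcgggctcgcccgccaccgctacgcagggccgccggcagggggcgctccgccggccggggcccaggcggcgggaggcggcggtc
Chd4: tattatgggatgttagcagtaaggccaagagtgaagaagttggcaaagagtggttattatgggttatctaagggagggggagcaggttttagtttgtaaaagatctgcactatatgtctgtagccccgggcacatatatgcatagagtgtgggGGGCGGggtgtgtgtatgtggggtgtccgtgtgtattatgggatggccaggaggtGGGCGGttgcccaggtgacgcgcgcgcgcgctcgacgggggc
The promoter of Chd6 holds 1 GC box and 3 CCAAT boxes, that of Kmt2a 4 GC boxes, that of Chd4 2 GC boxes and that of Smarcc2 neither motif. Of 32851 promoters of all genes, 32.7% hold a GC box and 33.8% a CCAAT box, and of 98 promoters of members 63.3% and 32.7%. The members' promoters held a median of 19 CpG, beside 6 over all promoters, and the Smarcc2 promoter held 40 with 80.8% G and C. These are letters in a window and not sites of binding.

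Chd6, a remodeller of the CHD family, lies on chromosome 2 (chr2:160946978-161109075) with a transcript of 10.5 kb. Its normalized counts were 27.4, 35.5, 24.3 and 31.4 in the KD controls 1, 2, 3 and 5, against 11.5, 11.7, 3.64 and 7.35 under the label Ftl1 KD (1, 3, 4 and 5). Every labelled library lay below every control, and this was the one member of the 11 whose groups did not overlap, where 347 of all genes did not (23.8%) and 174 were lower without overlap (11.9%). The log2 fold change was −1.78 (SE 0.36, adjusted p = 0.000826 by limma; exact two-sided permutation p = 0.0286, the smallest that 4 against 4 allows). The reads behind these values numbered 29, 88, 13 and 75 in the controls, and 12, 13, 2 and 5 under the label Ftl1 KD. The adjusted p of Chd6 ran from 0.000295 to 0.0505 over the alternative settings.

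Kmt2a, which methylates H3K4 at promoters and is needed for memory in mice, measured 50.96, 32.7, 16.9 and 70.2 in the controls and 23.97, 14.4, 20.04 and 5.88 in the labelled libraries (chr9:44803355-44881296). Control 3 was the low one among the controls and lay within the labelled libraries, and Ftl1 KD 5 was the lowest of all. The log2 fold change was −1.33 (SE 0.39, adjusted p = 0.0142 by limma). In limma its call was lost without control 1 (adjusted p = 0.0505), without control 5 (0.0709) and without Ftl1 KD 5 (0.0701). Its relative Kmt2d, with a transcript of 19.8 kb, measured 40.6, 7.66, 5.62 and 30.5 in the controls against 7.67, 10.8, 9.11 and 4.41. Controls 1 and 5 were high and controls 2 and 3 were among the labelled libraries, and Kmt2d did not pass (log2 fold change −0.94, SE 0.50, adjusted p = 0.165 by limma, 0.0307 by edgeR and 0.0293 by limma without control 3). Its log2 fold change was −0.49 without control 1 (adjusted p = 0.576 by limma) and −0.63 without control 5 (adjusted p = 0.476 by limma).

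The NuRD ATPases Chd3 and Chd4 gave like values. Chd4 (chr6:125095981-125130591) measured 39.6, 35.9, 13.1 and 34.3 in the controls and 11.5, 10.8, 10.9 and 26.4 in the labelled libraries. Control 3 was low and Ftl1 KD 5 lay above it, so that the groups overlapped. The log2 fold change was −0.99 (SE 0.36, adjusted p = 0.0447 by limma). In limma the call of Chd4 was lost without control 1 (adjusted p = 0.127), control 2 (0.127), control 5 (0.113), Ftl1 KD 1 (0.102), Ftl1 KD 3 (0.114) and Ftl1 KD 4 (0.106), and also with TMM scaling (0.0584) and with scaling by reads other than Rn45s (0.0593), each of which left 4 members called. Chd3 (chr11:69343273-69369406) measured 31.1, 24.2, 14.98 and 15.5 in the controls against 18.2, 6.31, 7.29 and 7.35, where Ftl1 KD 1 lay above controls 3 and 5 (log2 fold change −1.11, SE 0.38, adjusted p = 0.0333 by limma). Without control 1 its adjusted p in limma was 0.119, without control 2 0.0941, without Ftl1 KD 3 0.0953, without Ftl1 KD 4 0.0701 and without Ftl1 KD 5 0.0741. Chd5, the relative of both that is known from neurons, measured 12.3, 12.9, 3.74 and 14.6 in the controls against 7.67, 8.12, 0 and 4.41 and was not tested.

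Smarcc2, a scaffold of BAF known as BAF170, measured 36.8, 39.5, 20.6 and 24.2 in the controls and 21.1, 14.4, 14.6 and 10.3 in the labelled libraries (chr10:128459248-128490482). Ftl1 KD 1 lay just above control 3, and otherwise the groups were apart. The log2 fold change was −0.95 (SE 0.32, adjusted p = 0.0297 by limma), and the adjusted p was 0.0811 without control 1, 0.0952 without control 2, 0.0623 without Ftl1 KD 3 and 0.097 without Ftl1 KD 5. The ATPase Smarca4 measured 24.5, 16.5, 43.1 and 59.4 in the controls against 22.1, 17.1, 9.11 and 20.6. Control 2 lay among the labelled libraries, and the gene was just outside the limit (log2 fold change −0.93, SE 0.36, adjusted p = 0.0557 by limma, 0.0372 by edgeR and 0.0226 by limma without control 2). The log2 fold change of Smarca4 was −0.64 without control 5 (adjusted p = 0.232 by limma) and −0.67 without Ftl1 KD 4 (adjusted p = 0.187 by limma).

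**Figure D4:**
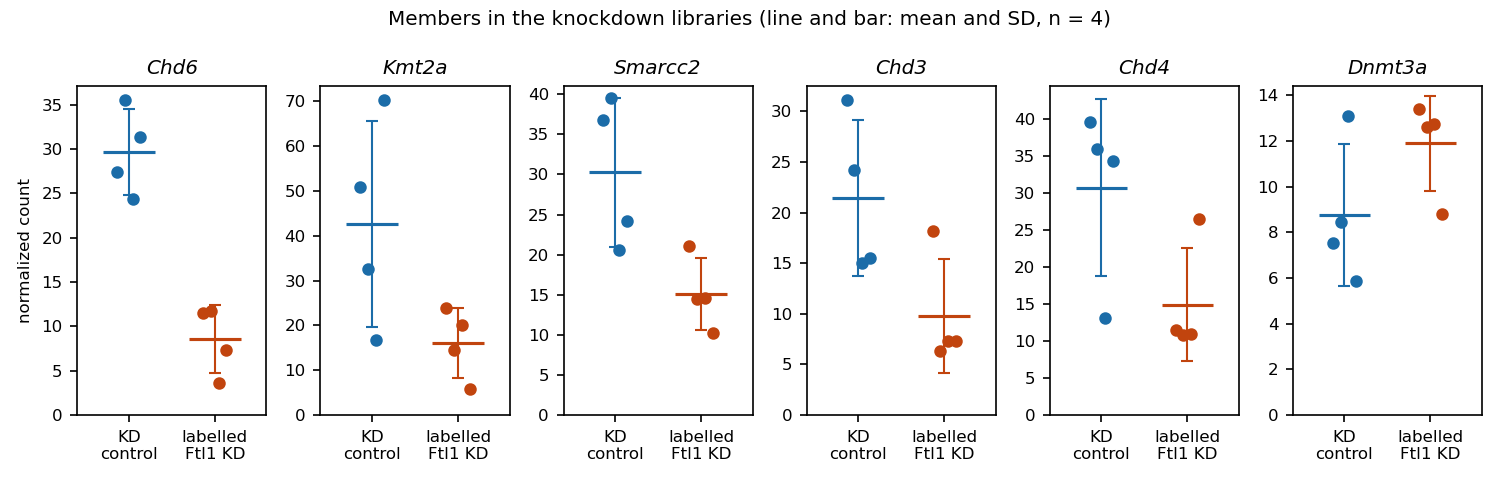
Normalized counts of the 5 members that fell and of Dnmt3a in each knockdown library, with axes from 0 and the mean and SD of 4 libraries as line and bar. The groups of Chd6 are apart (24.3 to 35.5 and 3.64 to 11.7), and the others overlap.

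Dnmt3a, Hdac3, Hdac5 and Hdac11 did not pass the test in knockdown. Dnmt3a measured 7.55, 8.47, 13.1 and 5.85 in the controls and 13.4, 12.6, 12.8 and 8.82 in the labelled libraries. Apart from control 3, the controls lay below the labelled libraries, and the log2 fold change of 0.44 (SE 0.44) had an adjusted p of 0.486 by limma, which with the length correction was 0.0631 at a log2 fold change of 1.18. Hdac3 measured 15.1, 9.28, 9.36 and 11.7 in the controls against 15.3, 11.7, 5.47 and 10.3, Hdac5 32.1, 22.99, 7.49 and 13.8 in the controls against 18.2, 15.3, 9.11 and 20.6, and Hdac11 16.99, 10.9, 11.2 and 14.2 in the controls against 13.4, 9.92, 5.47 and 14.7. The groups overlapped for all 3, with log2 fold changes of −0.13, −0.14 and −0.33 and adjusted p-values of 0.843, 0.822 and 0.577 by limma. With the length correction they stood at −0.31, 0.17 and −0.44, and a difference between these genes and the members that fell was not tested. These values rest on 3 to 57 reads in a library.

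The count of members that fell rested on single libraries. It was 1 without control 1, 3 without control 2, 3 without control 5, 2 without Ftl1 KD 3, 3 without Ftl1 KD 4 and 2 without Ftl1 KD 5. Control 3 and Ftl1 KD 1 left it at 6 and 4, and Chd6 was called in each of these fits. EdgeR called 7 members (the 5 with Smarca4 and Kmt2d) and DESeq2 called 4, without Chd3. Of all 1460 genes edgeR called 228 lower and 192 higher, and DESeq2 188 and 160. That these genes passed here and not in the other experiments does not show that the experiments differ, which was not tested.

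The members that fell have long transcripts, and over all genes tested the knockdown fold change went with transcript length. The median log2 fold change was 0.28 for genes with transcripts under 2 kb, 0.07 from 2 to 4 kb, −0.32 from 4 to 6 kb, −0.58 from 6 to 8 kb and −0.93 from 8 kb. The share of genes called lower was 3.36%, 9.40%, 22.3%, 24.5% and 40.0% in the same order. The 11 members had a median transcript of 6.70 kb, beside 3.04 kb over all genes tested, and none was under 2 kb. The length groups from 2 kb on held 2, 2, 3 and 4 members. In each of these the median of the members lay below that of all genes (−0.23, −0.54, −0.99 and −1.13). Once the trend with length was taken from each library, a setting chosen after seeing the data, 0 of 11 members were called, while 139 genes were higher and 106 lower. Chd6 was then at a log2 fold change of −0.98 (adjusted p = 0.0505 by limma), Smarcc2 at −0.68, Chd3 at −0.57, Chd4 at −0.50, Kmt2a at −0.22 and Kmt2d at 0.30. The median of the members was −0.44 in this setting, and that of the 2 methyltransferases 0.04. In the other experiments the median log2 fold change went from 0.10 under 2 kb to −0.02 from 8 kb in aging and from −0.21 to 0.21 in overexpression (−0.16 to 0.04 without OE control 9905). What gives rise to the trend with length was not tested.

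**Figure D5:**
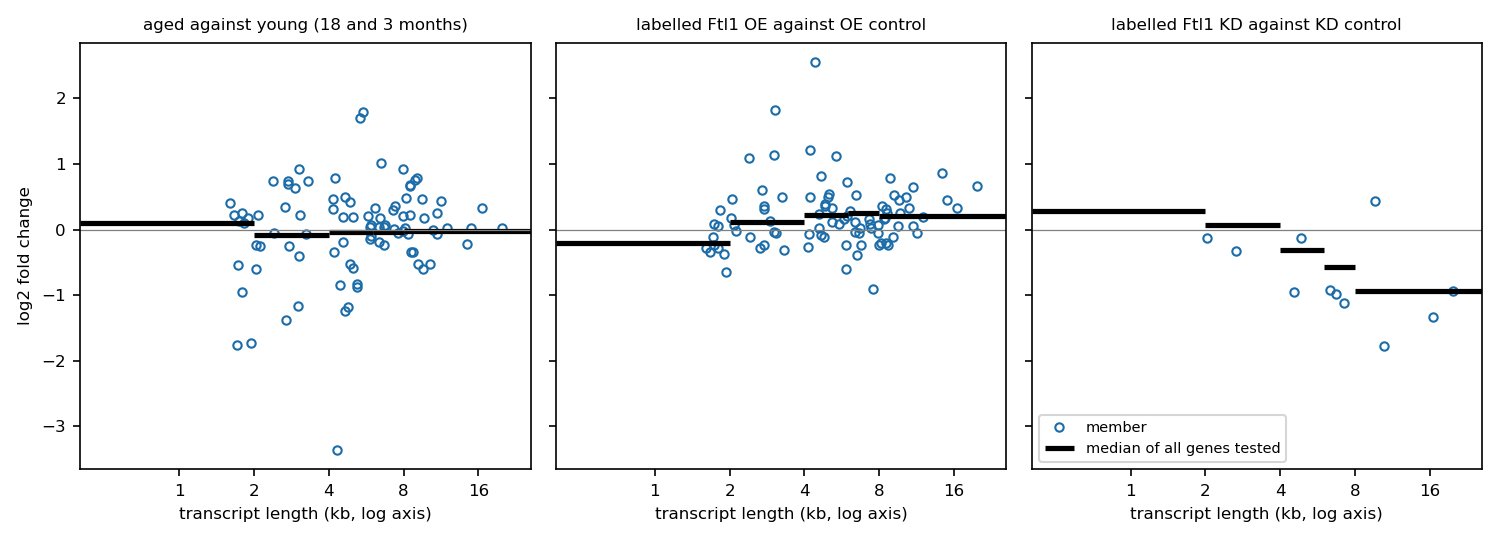
Log2 fold change against transcript length (kb, log axis) in the aging (left), overexpression (middle) and knockdown (right) experiments. Circles are members and black lines the median of all genes tested in each length group; in the knockdown experiment the lines go from 0.28 under 2 kb to −0.93 from 8 kb.

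RNA kept in the nucleus and markers of other cells moved with the knockdown groups too. All 5 nuclear-retained RNAs tested of a list of 10 were called lower, and the sum of the list was 1017, 631, 712 and 1266 in the controls and 329, 244, 226 and 231 in the labelled libraries, with Malat1 as the most abundant. Oligodendrocyte markers were called lower for 2 of 2 tested, and their sum was 61.4, 94.0, 74.9 and 36.8 in the controls and 18.2, 21.7, 10.9 and 13.2 in the labelled libraries, led by Mbp; 1 to 3 of the 8 were at 0 in the controls and 4 to 7 in the labelled libraries. Neuron markers had like sums in both groups, 209.5, 195, 149.8 and 178 against 191, 175, 162 and 175, with 1 of 4 tested called higher and 1 lower. Among astrocyte markers 1 of 3 tested was called higher, among CA1 markers 1 of 3 lower, and among dentate granule markers 1 of 1 lower. Dentate granule markers, led by C1ql2, summed to 56.6, 85.1, 35.6 and 59.8 in the controls against 25.9, 25.3, 23.7 and 11.8, with the groups apart. Markers of oligodendrocyte precursors, led by Olig1, summed to 10.4, 6.45, 16.9 and 2.93 against 17.3, 21.6, 32.8 and 19.1, also apart, and 0 of 1 tested was called (log2 fold change 1.40). No marker of CA3, microglia or endothelial cells was abundant enough to be tested. The part of each in the members' values was not tested.

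Other chromatin genes, taken from 12 lists of 156 genes that the naming rule does not pick, were read beside the members. In aging 0 of 149 tested were called (4 higher and 4 lower at an unadjusted p of at most 0.05 by limma) with a median log2 fold change of 0.05, and in overexpression 0 of 154 (7 higher and 4 lower) with a median of 0.11. In the knockdown experiment 14 were tested with a median of 0.15. The acetyltransferase Crebbp had a mean normalized count of 17.3 ± 9.80 in the controls and 7.19 ± 2.13 in the labelled libraries (SD, n = 4) and did not pass, with an adjusted p of 0.0812 by limma. Among those called higher were H3f3a, which encodes the replacement histone H3.3 that neurons build into chromatin (7.56 ± 2.39 and 18.7 ± 6.26, adjusted p = 0.0341 by limma), and the arginine methyltransferase Prmt2 (10.8 ± 3.40 and 21.6 ± 6.24, adjusted p = 0.0468 by limma).

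Several limits bear on these values. The aging experiment held 2 aged mice, and the medians of 4 of the 7 classes changed sign between them. The counts of Ftl1 went against the label of the knockdown groups. In overexpression the groups overlapped, and the counts did not bear out the label. The knockdown libraries held few reads, 84 members were under the mean of 10 there, and Chd6 alone among the called members kept its call with each library left out. RNA in the nucleus was measured, and neither protein nor histone or DNA marks were. Symbols chose the members, so that enzymes with other names, such as Ezh2, are not among them.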

How the data were processed

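Nuclear RNA of sorted NeuN-positive hippocampal nuclei was sequenced in 25 libraries. The signal values in the deposited tables are normalized counts, made by the authors with STAR, RSEM and DESeq2 on mm10: reads per gene divided by the size factor of the library, in each experiment apart. Whole reads were recovered from them (tolerance 0.1 reads). The release of the gene annotation was not stated, and positions and transcript lengths are from GENCODE M21. Remaining columns of the tables hold the authors' own fold changes, errors and p-values, and were not used.

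Log2 of the normalized count plus 1 was fitted with limma 3.58.1 (R 4.3.3, trended variance) over all genes with a mean of at least 10, with Benjamini-Hochberg adjustment over all genes tested. A gene was called at an adjusted p of at most 0.05, and in aging also at a log2 fold change of 0.5 or more in either direction. The fit was tested on simulated data. Exact two-sided permutation tests used the difference of mean normalized counts, and the smallest p they can give is 0.1 in aging, 0.00126 in overexpression and 0.0286 in knockdown. Spread in every p is that between libraries, each from other mice. edgeR 4.0.16 and DESeq2 1.42.0 were run beside limma, and Python 3.11.15 with pandas 2.3.3, numpy 2.4.6 and matplotlib 3.10.9 did the rest. Alternatives were pseudocounts of 0.5 and 5, no filter, means of at least 3 and 100, TMM scaling, median centring, a replicate block, scaling by reads other than Rn45s (knockdown), each library left out, and, chosen after seeing the data, a correction for transcript length (lowess, span 0.5, in each library).

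Genes named are members past the threshold, the 2 most abundant per class per kb in young nuclei, set pairs of relatives, Ftl1 and Rn45s. Added to these are up to 4 members per direction with the smallest limma p among those whose groups do not overlap. In overexpression, where the groups of all members overlapped, members at an unadjusted p of at most 0.05 by limma are named. In other chromatin lists it is the gene with the smallest p per direction. Some members, such as Sirt4 and Hdac6 in aging, are named outside these rules. Members and lists were chosen with earlier results of these data known. Levels of different genes are compared per kb of transcript only.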

Additional observations from a re-analysis of the deposited data

Results flagged for a closer look

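Within groups of 4, 5 or 7 libraries, 6 of 74 sets of values held a library far from the others of its group, where chance gives about 1 in 20. In OE control 9905 the normalized count of Arid5b was 1255 and that of Ftl1 28309.5, each the highest of the controls. In the library labelled Ftl1 OE 9918 that of Kdm4c was 834, and the lysine demethylases together had 1062 rpm (reads scaled to the library without Rn45s). In the libraries labelled Ftl1 KD, Chd3 was high in replicate 1 at 18.2 and Chd4 in replicate 5 at 26.4. What set these libraries apart was not tested.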

How the results depend on the processing

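In aging 0 members and in overexpression 0 members were called by limma under each alternative, and by edgeR and DESeq2. The median log2 fold change of the members in aging ran from −0.13 to 0.26 as each library was left out. In overexpression it was −0.17 with the length correction, chosen after seeing the data. In knockdown, members called numbered 3 with no filter and 3 with a mean of at least 3 (Chd6, Kmt2a and Sirt7 in both), 0 with the length correction, 2 with replicate number as a block (Chd6 and Kmt2a), and from 1 to 6 as each library was left out. Their median log2 fold change was −0.32 with no filter, −0.56 with a mean of at least 3, −0.44 with the length correction and from −1.18 to −0.64 as each library was left out. No member reached a mean of at least 100 in knockdown, so that this alternative gave no value. With the length correction Kmt2d was at 0.30 and Hdac5 at 0.17. With the block Hdac5 was at 0.23 and Hdac3 at 0.049, and edgeR gave Hdac3 0.00429. As each library was left out, Hdac5 ran from −0.49 to 0.16 and Hdac3 from −0.32 to 0.13. With no filter and with a mean of at least 3 more genes were tested; for the other settings the cause was not tested. Whether libraries with the same replicate number are paired was not stated. The correlations of deviations from the group mean, for libraries that share a number, ran from −0.054 to 0.024 in aging. In knockdown they ran from −0.052 to −0.020. These cannot decide on pairing, since the deviations of the 2 aged libraries mirror each other and the knockdown libraries held few reads. Members had 140 to 1482 reads in a knockdown library.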
